A study of Mus musculus with 20 samples.

Results

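The 10 genes of the Sox family followed here are not among the reprogramming factors, and they were described across H3K27me3, KLF4 and JMJD3 peak lists. They are Sox1, Sox14 and Sox21 of group B, Sox11 of group C, Sox8, Sox9 and Sox10 of group E, and Sox7, Sox17 and Sox18 of group F. They were taken by name and are 10 of the 21938 protein-coding genes of the GENCODE M21 basic annotation used here. Another 9 Sox genes (Sox2, Sox3, Sox4, Sox5, Sox6, Sox12, Sox13, Sox15 and Sox30) served for comparison. All cells were mouse embryonic fibroblasts (MEFs) or came from them. WT cells were Jmjd3+/+ and carry the strain label C57BL/6J-OG2. KO cells were Jmjd3-/- and carry the strain label C57Bl6J, so genotype and strain cannot be told apart. For its colony counts the study describes littermate WT and KO MEFs without the OG2 reporter, which differs from the WT label. MEFs were collected at day 0 without any virus. The other cells received Oct4, Sox2, Klf4 and c-Myc (OSKM), together with either a FLAG control vector or a JMJD3 vector, grew with vitamin C and were collected at day 5 or day 10. This gave 10 H3K27me3 lists, 1 for each genotype in MEFs and 1 for each combination of genotype, vector and day. KLF4 was mapped in WT cells at day 5 with either vector. FLAG-tagged JMJD3 was mapped with an anti-FLAG antibody at day 5 in WT cells with OSKM or with OSlowKM, a factor set named so in the labels. Each group is 1 library, so no spread between replicates could be measured, no test was run, and every difference below compares single libraries. The labels call the day 5 and day 10 cells intermediates, and such cultures can mix cells that have and have not progressed. A peak that is missing therefore cannot tell fewer cells with the mark from less of the mark per cell.

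SOX proteins bind DNA through a shared HMG box and steer cell fate. Group B members act in the nervous system (Sox1 as an activator in neural progenitors, Sox14 and Sox21 as repressors), Sox11 acts in developing neurons and mesenchyme, group E members act in neural crest, glia, cartilage and testis, and group F members act in blood vessels and, for Sox17, in endoderm. H3K27me3, trimethylation of lysine 27 of histone H3, is placed by the Polycomb repressive complex 2 and is found over the CpG-rich starts of many developmental genes in cells that do not use them. JMJD3, encoded by Kdm6b, is a demethylase that removes this mark. KLF4, a zinc finger factor that binds GC-rich sites, is one of the reprogramming factors.

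The sequences below are the places on which the results turn. The first pair are, for Sox10 and Sox8, the stretch of each gene that H3K27me3 peaks covered in the most lists, limited to the part outside untranslated regions, and capitals mark every CpG. The Sox10 stretch (chr15:79163795-79163985, minus strand, intron) was covered in all 10 lists and holds 18 CpGs, and the Sox8 stretch (chr17:25569895-25570158, minus strand) was covered in 9 lists and holds 5 CpGs, and its first 49 bases lie in a coding exon and the other 215 in the intron that follows. Sequence was read from GRCm38.p6, the same build as the mm10 genome of the lists.
Sox10 stretch: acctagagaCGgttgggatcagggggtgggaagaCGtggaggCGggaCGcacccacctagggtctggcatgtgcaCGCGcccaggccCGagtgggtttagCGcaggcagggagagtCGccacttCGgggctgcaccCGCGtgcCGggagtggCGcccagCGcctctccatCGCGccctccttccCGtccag
Sox8 stretch: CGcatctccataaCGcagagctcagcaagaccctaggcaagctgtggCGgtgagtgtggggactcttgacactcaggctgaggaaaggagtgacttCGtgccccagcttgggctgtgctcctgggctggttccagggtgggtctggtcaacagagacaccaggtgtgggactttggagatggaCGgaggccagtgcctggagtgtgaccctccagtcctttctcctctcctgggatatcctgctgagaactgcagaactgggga

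Promoters are given for members that the lists treat differently, as the 250 bases before the RefSeq start on the minus strand, with CpGs in capitals. RefSeq promoters matched 5 of the 10 members (Sox1, Sox8, Sox11, Sox14 and Sox21). The Sox14 promoter (chr9:99876171-99876420, 23 CpGs) was overlapped by H3K27me3 peaks in 6 of 10 lists, and the Sox8 promoter (chr17:25570687-25570936, 18 CpGs) in 2, both from KO cells with FLAG. At day 10 only the edge of the peak reached the Sox8 promoter. The Sox21 promoter (chr14:118237031-118237280, 17 CpGs) was overlapped by no H3K27me3 peak but by the edge of 1 KLF4 peak of cells with JMJD3. The midpoint of that KLF4 peak lay 201 bp downstream of the start of Sox21. The Sox11 promoter (chr12:27342719-27342968, 17 CpGs) was also free of H3K27me3 peaks and held a JMJD3 position at base 13 from its 5′ end. Its RefSeq start lies 144 bases upstream of the GENCODE start used for distances below.
Sox14 promoter: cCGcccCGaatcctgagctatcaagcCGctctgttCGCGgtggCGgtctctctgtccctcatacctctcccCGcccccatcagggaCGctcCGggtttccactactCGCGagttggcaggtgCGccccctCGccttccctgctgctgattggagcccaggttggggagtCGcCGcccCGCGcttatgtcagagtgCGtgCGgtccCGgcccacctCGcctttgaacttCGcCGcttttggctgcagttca
Sox8 promoter: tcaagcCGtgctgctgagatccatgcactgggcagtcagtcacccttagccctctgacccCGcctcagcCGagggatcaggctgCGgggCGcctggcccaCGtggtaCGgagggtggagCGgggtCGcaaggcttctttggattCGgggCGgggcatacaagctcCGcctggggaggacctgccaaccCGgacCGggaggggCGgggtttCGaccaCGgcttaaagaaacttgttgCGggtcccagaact
Sox21 promoter: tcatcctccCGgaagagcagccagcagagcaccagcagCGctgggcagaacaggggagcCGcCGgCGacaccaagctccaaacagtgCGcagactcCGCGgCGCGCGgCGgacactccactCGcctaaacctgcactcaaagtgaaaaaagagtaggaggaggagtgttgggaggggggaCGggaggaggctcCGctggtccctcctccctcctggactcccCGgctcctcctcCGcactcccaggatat
Sox11 promoter: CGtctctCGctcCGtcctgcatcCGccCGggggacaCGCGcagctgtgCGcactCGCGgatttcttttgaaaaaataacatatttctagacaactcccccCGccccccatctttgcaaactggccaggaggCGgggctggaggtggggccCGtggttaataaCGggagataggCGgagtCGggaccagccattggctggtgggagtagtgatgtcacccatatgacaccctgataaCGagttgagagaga

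The last set are 200 bp windows centred on bound sites away from promoters, with matches to the KLF motif GGGNGTGG on either strand in capitals. The Sox9 site lies downstream of the gene (chr11:112818114-112818313, plus strand), with a KLF4 peak in both KLF4 lists and a JMJD3 position. The upstream Sox21 site (chr14:118262602-118262801, minus strand) had a KLF4 peak in both KLF4 lists. The downstream Sox21 site (chr14:118230252-118230451, minus strand) was the only place near any of the 10 genes with a JMJD3 position in both JMJD3 lists. The upstream Sox21 site held 2 matches to the KLF motif, both read as CCACGCCC, the other windows, the Sox8 stretch and all 4 promoters held none, and the Sox10 stretch, where capitals mark CpGs, held 2. The motif was found in 15.9% of 32851 RefSeq promoters, in 35.5% of the KLF4 windows of cells with FLAG, in 33.6% of those of cells with JMJD3, and in 14.6% (OSKM) and 9.46% (OSlowKM) of the JMJD3 windows. A SOX motif (ACAATGG), an OCT motif (ATGCAAAT) and an AP-1 motif (TGANTCA), each searched on both strands and counted separately, matched in none of the printed sequences. They were found in 3.02%, 1.6% and 6.75% of all promoters. In the JMJD3 windows they were found in 8.17%, 3.83% and 11.4% with OSKM and in 7.44%, 4.47% and 17.3% with OSlowKM, and in the KLF4 windows in 3.7%, 1.31% and 5.44% with FLAG and in 3.93%, 1.1% and 5.86% with JMJD3. A match is only a run of letters, and its absence says nothing about binding.
Sox9 downstream site: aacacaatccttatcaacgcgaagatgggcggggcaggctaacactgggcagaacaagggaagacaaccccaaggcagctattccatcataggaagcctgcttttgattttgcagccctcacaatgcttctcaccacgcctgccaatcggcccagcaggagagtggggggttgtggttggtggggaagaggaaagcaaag
Sox21 upstream site: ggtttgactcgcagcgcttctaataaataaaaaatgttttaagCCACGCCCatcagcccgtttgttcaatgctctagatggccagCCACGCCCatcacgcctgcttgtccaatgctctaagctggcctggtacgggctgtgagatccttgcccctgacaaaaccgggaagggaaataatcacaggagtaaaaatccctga
Sox21 downstream site: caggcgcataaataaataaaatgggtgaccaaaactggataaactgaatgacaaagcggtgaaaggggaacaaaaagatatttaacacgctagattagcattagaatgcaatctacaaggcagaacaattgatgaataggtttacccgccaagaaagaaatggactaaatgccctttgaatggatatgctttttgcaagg

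Most of the 10 Sox genes carried H3K27me3 in every cell population. Between 7 and 9 of them had a peak within 5 kb of a transcription start site (TSS) in each list, and Sox1, Sox7, Sox10, Sox14, Sox17 and Sox18 had one in all 10 lists. Sox8 lacked a peak only in KO MEFs, Sox9 had none in either MEF list and one or more in every list of reprogramming cells, Sox21 had peaks in 5 lists, and Sox11 had none. Among all protein-coding genes, 4.68% had a peak in all 10 lists, against 6 of 10 here, and 77.6% had a peak in no list. With a window of 1 kb the count was 3 of 10 (3.05% of all genes), and with the better-scoring 50% of each list also 3 of 10 (2.48%). Leaving out the KO MEF list, an alternative chosen after seeing the data, 7 of 10 members and 5.22% of all genes had a peak in the other 9. The lists held 3045 to 6954 peaks, all 1000 bp wide. Read numbers were not used here.

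By list, 8 members had a peak in WT MEFs against 14.6% of all genes, and 7 in KO MEFs against 10.3%. At day 5 in WT cells the members were 8 with FLAG (14.7% of all genes) and 9 with JMJD3 (11.0%). At day 5 in KO cells they were 9 with FLAG (13.7%) and 8 with JMJD3 (13.0%). At day 10 in WT cells they were 8 with FLAG (12.1%) and 8 with JMJD3 (8.26%). At day 10 in KO cells they were 8 with FLAG (12.8%) and 9 with JMJD3 (11.7%). With the better-scoring 50% of each list the members' count ran from 4, in KO MEFs, to 9, and with a 1 kb window from 4, again in KO MEFs, to 7.

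**Figure D1:**
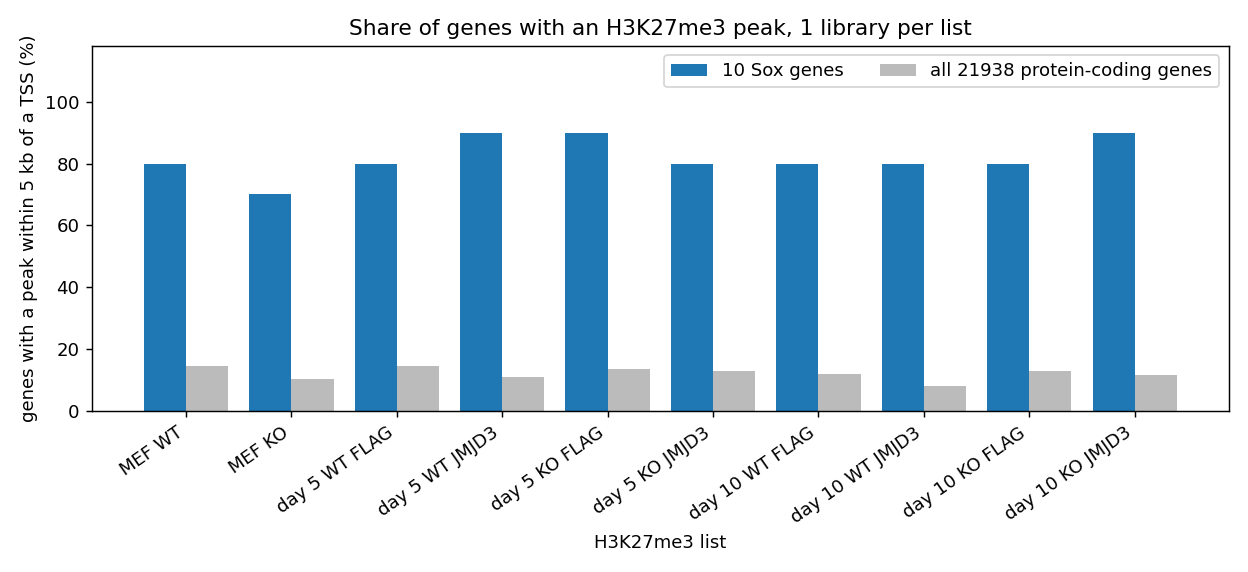
Percent of genes carrying H3K27me3 peaks no farther than 5 kb from a TSS (vertical axis) in each of the 10 lists (horizontal axis), for the 10 Sox genes (blue bars) and all 21938 protein-coding genes (grey bars). Each bar is 1 library without an error, and the Sox genes stand at 7 to 9 of 10 in every list.

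Peaks were then placed by score. The score scale is not stated, so each peak is given by its place in its own list, as a percent of the list counted from the highest score. The best-scoring peaks thus stand near 0% and the weakest at 100%. The best peaks of the members stood higher, by their median, than those of all genes in 9 lists, and lower in KO MEFs. Their median place was 16.6% in WT MEFs, where the median of all genes with a peak was 32.2%, and 41.5% in KO MEFs, where that of all genes was 36.5%. In the 8 lists of reprogramming cells the members' median ranged from 6.05% (day 10 KO, JMJD3) to 17.6% (day 10 WT, JMJD3), and that of all genes from 30.4% to 39%. At most 9 members carry these medians, and each stands for a single library.

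**Figure D2:**
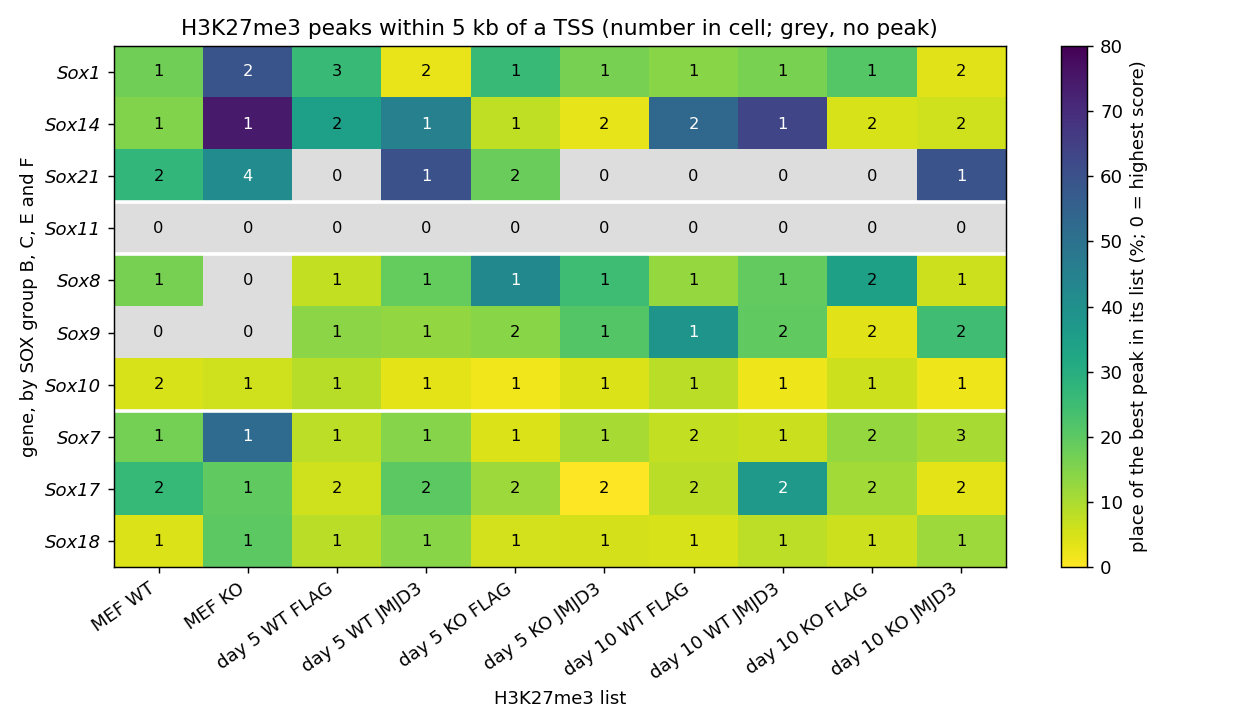
Place of the best H3K27me3 peak within 5 kb of a TSS (colour, percent of the list, yellow highest) for each Sox gene (rows, by group) and list (columns), with the number of peaks in each cell and grey where no peak was listed. The Sox10 row stays yellow to light green throughout, Sox11 is grey throughout, and the KO MEF column is darkest for Sox14 and Sox1.

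In group B, Sox1, an activator of neural progenitor identity, had 1 to 3 peaks in each list. Its best peak was not at its start but 3532 to 4982 bp upstream, inside the noncoding gene Sox1ot, and a stretch of 292 bp there (chr8:12391264-12391555) was covered in 9 lists. The places were 17.2% in WT MEFs, 59.3% in KO MEFs, 25.8% and 2.71% at day 5 in WT cells with FLAG and JMJD3, 25.7% and 16.4% at day 5 in KO cells, 14.3% and 16% at day 10 in WT cells, and 21% and 3.51% at day 10 in KO cells. The peak thus stood highest in day 5 WT and day 10 KO cells with JMJD3 and lowest in KO MEFs. No list had a Sox1 peak within 1 kb of the TSS. Sox1 also had 3 to 10 peaks within 50 kb of the gene, the largest number of the 10 genes.

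Sox14, a repressor made in subsets of neurons, had 1 or 2 peaks in each list. Its places were 15.1% in WT MEFs, 74.1% in KO MEFs, 34.8% and 45.2% at day 5 in WT cells with FLAG and JMJD3, 7.66% and 3.03% at day 5 in KO cells, 52.9% and 63.4% at day 10 in WT cells, and 4.91% and 5.78% at day 10 in KO cells. In reprogramming cells all 4 KO lists placed it higher than all 4 WT lists, with no overlap, whereas in MEFs the order was the opposite. Of the 1220 genes with a peak in all 8 lists of reprogramming cells, 1.48% were placed in this way, and 0.246% were placed higher in all 4 WT lists than in all 4 KO lists. By rank in the list in place of percent, the shares were 1.23% and 0.902%. Among the 8 members with such peaks, Sox14 was the only one of the first kind by either measure, and none was of the second. This comparison was chosen after the values were seen, and the 4 lists of a genotype differ in day and vector and are no replicates. In 9 lists the best peak covered the TSS or began within 149 bp downstream of it, and all 9 shared the stretch 149 to 348 bp downstream, and in KO MEFs the only peak lay 3158 bp upstream.

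Sox21, a repressor that counters the neural activators of group B, had 2 peaks in WT MEFs, 4 in KO MEFs, 0 and 1 at day 5 in WT cells with FLAG and JMJD3, 2 and 0 at day 5 in KO cells, 0 and 0 at day 10 in WT cells, and 0 and 1 at day 10 in KO cells. Where it had a peak, the best one stood at 27%, 41.5%, 60.2%, 18.4% and 59.4%, in that order of lists. Only the 18.4% of day 5 KO cells with FLAG was within the top 25% of its list. The peaks lay from 2658 bp upstream to 4385 bp downstream of the TSS, with at most 3 lists covering any one base. Within 50 kb of the gene, the number of peaks was 5 in WT MEFs, 5 in KO MEFs, 5 and 3 at day 5 in WT cells, 7 and 3 at day 5 in KO cells, 2 and 0 at day 10 in WT cells, and 2 and 3 at day 10 in KO cells. The region thus held 5 peaks in each MEF list and 0 to 3 at day 10.

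Sox11 of group C, which acts in immature neurons, had no peak within 5 kb of its TSS in any list, and none within 50 kb of the gene. It shares this with 77.6% of all genes for the nearer window. Its TSS was the most CpG-rich of the 10 genes, as given below, so it was free of called H3K27me3 at a start as rich in CpG as those of most other members.

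**Figure D3:**
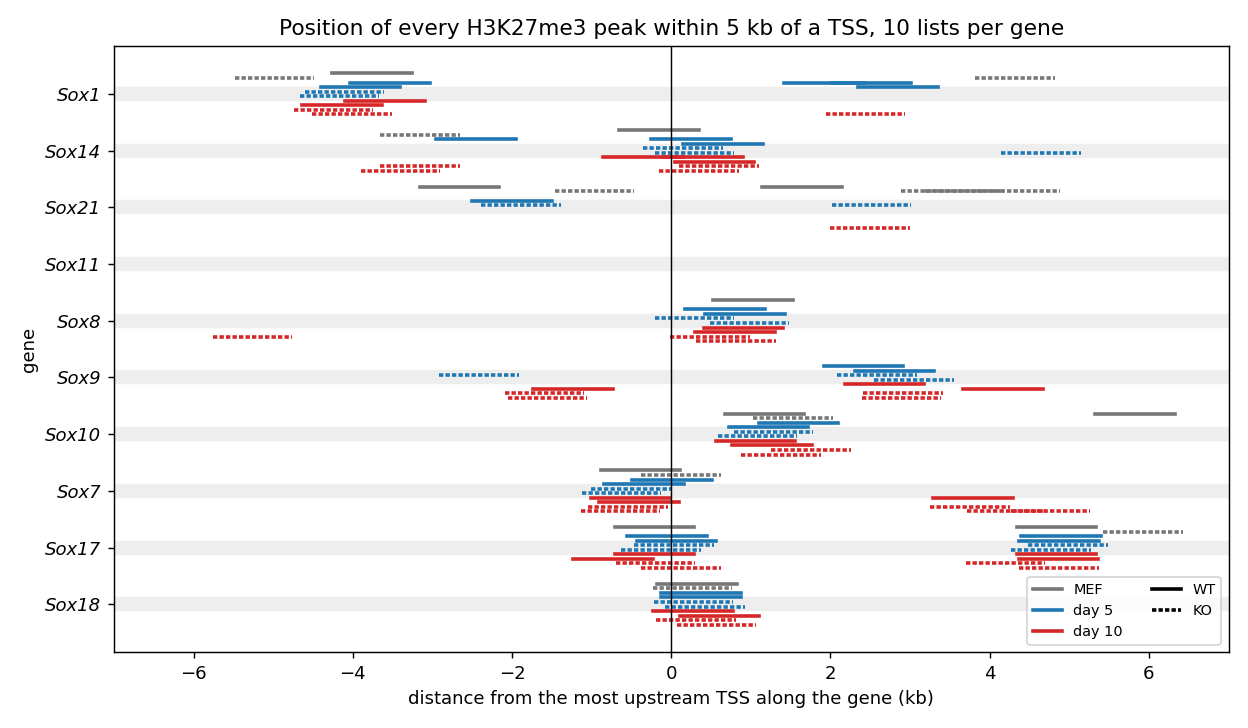
Every H3K27me3 peak within 5 kb of a TSS of the 10 Sox genes, drawn as a 1 kb bar at its distance from the most upstream TSS (horizontal axis, kb), with 10 rows per gene for the 10 lists, coloured by day, solid for WT and dashed for KO. Peaks of Sox18, Sox8 and Sox10 stack at the same place in nearly every list, Sox17 has a pair of stacks, and those of Sox21 scatter.

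In group E, Sox10, a factor of neural crest and glia, kept a high place in every list. Its best peak stood at 4.95% in WT and 5.84% in KO MEFs, at 8.68% and 3.3% at day 5 in WT cells with FLAG and JMJD3, at 1.65% and 4.25% at day 5 in KO cells, at 8.34% and 2.1% at day 10 in WT cells, and at 6.18% and 1.89% at day 10 in KO cells. All 10 values were under 9%, and every midpoint lay 1060 to 1755 bp downstream of the most upstream TSS, at the stretch printed above. The gene has a second TSS 750 bp downstream of the first, and the peak covered this second TSS in 4 lists and the first in 0.

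Sox8, a relative of Sox9 and Sox10, had no peak in KO MEFs and none within 50 kb there. Its places were 16.5% in WT MEFs, 7.36% and 18.9% at day 5 in WT cells with FLAG and JMJD3, 42.8% and 24.8% at day 5 in KO cells, 12.7% and 19.2% at day 10 in WT cells, and 34.4% and 6.05% at day 10 in KO cells. The FLAG lists of KO cells placed it lowest, at both days. One of its 10 peaks, from day 10 KO cells with FLAG, lay nearer to the TSS of the neighbouring gene Lmf1.

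Sox9, the regulator of cartilage and testis formation, had no peak in WT or KO MEFs, also not within 50 kb, and 1 or 2 peaks in each of the 8 lists of reprogramming cells. Its places were 13.9% and 13% at day 5 in WT cells with FLAG and JMJD3, 14.1% and 21.5% at day 5 in KO cells, 38.6% and 19.4% at day 10 in WT cells, and 3.5% and 24.5% at day 10 in KO cells. The best peak lay over the gene body, 2414 to 3046 bp downstream of the TSS, in 7 of the 8 lists (a common stretch of 368 bp, chr11:112784771-112785138), and 1233 bp upstream in day 10 WT cells with JMJD3. Only 0.273% of all genes, 60 in number, had this pattern of a peak in all 8 lists of reprogramming cells and in neither MEF list. The pattern was singled out after the values were seen. The lists hold no RNA, and the RNA-seq that the study reported for MEFs and reprogramming cells was not used here. Expression of Sox9 was therefore not examined.

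In group F, which acts in vessel formation, Sox18 had exactly 1 peak in each list, always at the gene. Its places were 4.29% in WT MEFs and 20.3% in KO MEFs, 8.29% and 14.1% at day 5 in WT cells with FLAG and JMJD3, 5.48% and 5.15% at day 5 in KO cells, 4.87% and 7.91% at day 10 in WT cells, and 6.01% and 11.6% at day 10 in KO cells. A stretch of 660 bp (chr2:181670876-181671535), 105 to 764 bp downstream of the TSS, was covered in all 10 lists and was the longest such stretch of the 10 genes. The gene itself spans 1805 bp.

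Sox7 stood at 16.6% in WT MEFs, 52% in KO MEFs, 7.95% and 14.6% at day 5 in WT cells with FLAG and JMJD3, 4.29% and 10.5% at day 5 in KO cells, 7.41% and 6.31% at day 10 in WT cells, and 12.8% and 10.5% at day 10 in KO cells. Its best peak covered the TSS or lay just before it, with 240 bp (chr14:63943296-63943535) covered in all 10 lists. A further peak 3754 to 4762 bp downstream was listed at day 10 only, in WT cells with FLAG and in KO cells with either vector, where 2 such peaks were listed with JMJD3. These lower peaks stood at 49.1% to 89.3% of their lists.

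Sox17, which specifies endoderm and arterial endothelium, had a pair of peaks in 9 lists, 1 at or just before the most upstream TSS and 1 over the coding exon 4201 to 4987 bp downstream. In KO MEFs it had a single peak 5926 bp downstream. The best peak stood at 26.3% in WT MEFs, 19.4% in KO MEFs, 5.68% and 20.2% at day 5 in WT cells with FLAG and JMJD3, 11.8% and 0.0153% at day 5 in KO cells, 8.22% and 36.8% at day 10 in WT cells, and 11% and 3.42% at day 10 in KO cells. In WT cells the best peak stood lower with JMJD3 than with FLAG at both days, and in KO cells higher. At day 10 in WT cells the best peak was the one over the coding exon with FLAG and the one near the TSS with JMJD3. The place at day 5 in KO cells with JMJD3 is rank 1, which is shared by 33 peaks at the highest score of 200 in that list.

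The study asked how added JMJD3 changes H3K27me3 during reprogramming, and the members were compared between the FLAG and JMJD3 vectors. At day 5 in WT cells, 0 of the 8 members with a FLAG peak lacked one with JMJD3, while 31.8% of all genes with a FLAG peak did. At day 5 in KO cells 1 of 9 members did, Sox21, against 20.5% of all genes. At day 10 the counts were 0 of 8 in WT cells, against 41.3%, and 0 of 8 in KO cells, against 25.1%. Sox21 in turn gained a peak with JMJD3 in day 5 WT cells, as did 1.12% of all genes without one, and in day 10 KO cells, as did 2.42%. Neither gain was left with a 1 kb window or with the better-scoring 50% of each list. With a 10 kb window or at equal list length, only the gain in day 10 KO cells was left. By their median, the members' best peaks stood higher in the FLAG lists than those of all genes, and over all genes high peaks were lost less often. Whether this bears on the members' counts was not tested. Among genes whose best FLAG peak was in the top 25% of its list, an alternative chosen after seeing the data, the share without a JMJD3 peak was 5.70% (WT) against 2.14% (KO) at day 5, and 17.0% against 5.19% at day 10. The members among them were 6, 7, 6 and 7, and none lacked a peak with JMJD3 except Sox21 at day 5 in KO cells. With so few genes, a count of 0 cannot be told apart from these shares.

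The place of the best peak moved both ways with the vector. Place only orders the peaks of a list among themselves, so it cannot show whether the amount of the mark rose or fell. The study reported that added JMJD3 lowered the H3K27me3 signal across the genome at the earlier day, in WT and in KO cells. A higher place with JMJD3 therefore does not show more H3K27me3 at that gene. Place is a percent of the list, so a shorter list by itself lowers the place of a peak of the same rank, and ranks were therefore compared too, an alternative chosen after seeing the data. At day 5 in WT cells it was lower with JMJD3 for 5 of 8 members (Sox7, Sox8, Sox14, Sox17 and Sox18) and the median change over the 8 was 6.24 percentage points towards a lower place, and 64.2% of the 2203 genes with both peaks were lower, with a median change of 5.3 points. By rank the same 5 members were lower, against 51.8% of all such genes. At day 10 in WT cells 5 of 8 members were lower (Sox1, Sox8, Sox14, Sox17 and Sox18), with a median change of 2.35 points, against 65.3% of all such genes and a median of 6.65 points. The lists of this pair hold 5131 and 3045 peaks, and by rank only Sox17 was lower with JMJD3 (rank 422 with FLAG and 1122 with JMJD3), against 43.1% of all such genes. By its best peak, Sox17 was thus the only member lower by both measures at both days in WT cells. At day 10 this best peak was the one over the coding exon with FLAG and the one near the TSS with JMJD3. The exon peak stood at rank 1395 with JMJD3, and the peak near the TSS went from rank 2147 with FLAG to 1122. In KO cells 3 of 8 members were lower at day 5 (Sox7, Sox9 and Sox10; median change -2.47 points, all genes -1.83, of which 44.7% were lower) and 3 of 8 at day 10 (Sox9, Sox14 and Sox18; median -3.28, all genes 1.36, of which 54.1% were lower). By rank Sox18 joined the 3 at day 5 (52.6% of all genes lower), and the same 3 were lower at day 10 (50% of all genes). The best FLAG peak overlapped a JMJD3 peak of the same pair for 8 of 8 members in each pair but day 10 WT. Sox9 was the exception there. The overlapping JMJD3 peak was not always the best one, as at Sox17 at day 10 in WT cells.

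**Figure D4:**
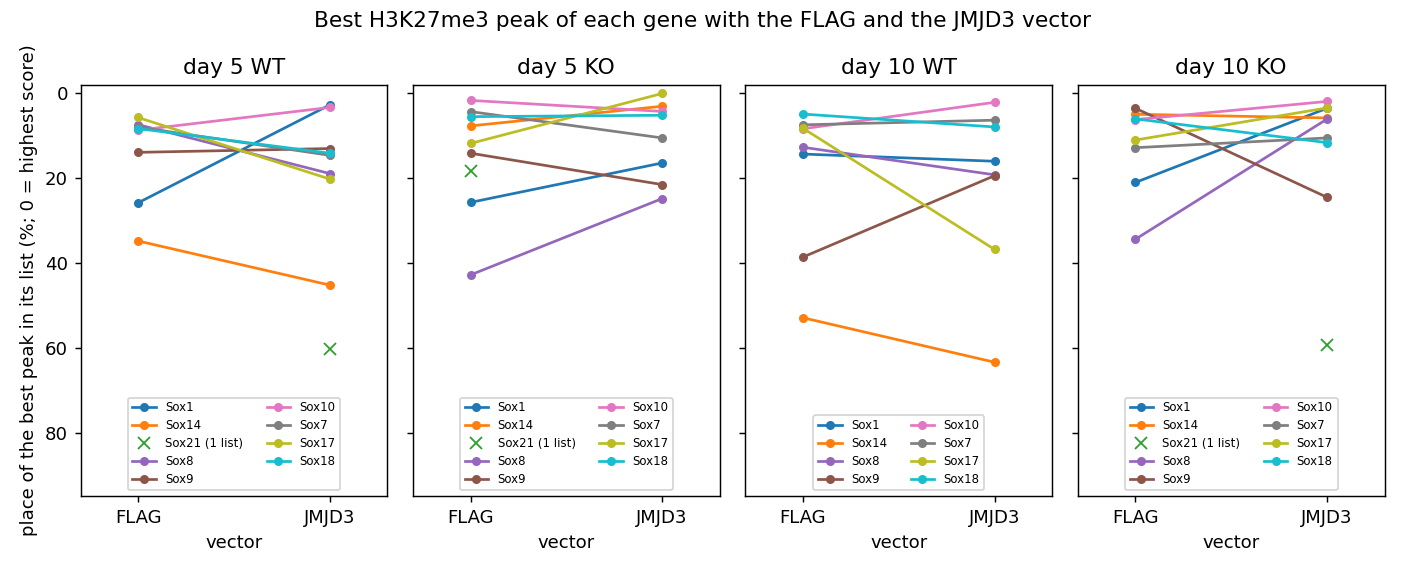
Place of the best H3K27me3 peak (vertical axis, percent of the list, 0 at the top for the highest score) with the FLAG and the JMJD3 vector, in 1 panel for each day and genotype, 1 line per Sox gene and a cross where only 1 of the pair had a peak. Lines run both ways in every panel, and Sox17 falls in both WT panels and climbs in both KO panels.

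Loss of Jmjd3 was compared at matched stages. Of the 8 members with a peak in WT MEFs, only Sox8 had none in KO MEFs, against 35.6% of all genes with a WT peak. This count moved with the settings, to 3 of 6 with a 1 kb window (36.1% of all genes), 4 of 8 with the better-scoring 50% of each list (38.6%) and 2 of 8 at equal list length (22%). With FLAG, 0 of 8 members lost their peak in KO cells at day 5 (17.9% of all genes) and 0 of 8 at day 10 (18.4%). Sox21 had a peak at day 5 in KO cells and not in WT cells. In the MEF pair 6 of the 7 members with both peaks stood lower in KO cells, as did 73% of all such genes. By rank 4 did (Sox1, Sox7, Sox14 and Sox18), against 46% of all such genes. The place of the best peak went from 15.1% to 74.1% for Sox14, from 17.2% to 59.3% for Sox1 and from 16.6% to 52% for Sox7. It went from 4.29% to 20.3% for Sox18, from 27% to 41.5% for Sox21 and from 4.95% to 5.84% for Sox10. For Sox17 it went the other way, from 26.3% to 19.4%. The best peaks of the WT and KO lists did not overlap for Sox1, Sox14, Sox17 and Sox21, so their places belong to different peaks. The KO MEF list holds 4113 peaks against 6954 in WT MEFs.

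Over time with FLAG, Sox21 was the only member to lose its peaks in the main counts. From WT MEFs to day 5, 1 of 8 members lost them, against 22.2% of all genes with a MEF peak, and to day 10 again 1 of 8, against 36.6%. The WT count to day 5 was 0 with a 1 kb or a 10 kb window. To day 10 it was 0 with a 1 kb window and 2 (Sox14 and Sox21) with the better-scoring 50% of each list. In KO cells 0 of 7 members lost their peaks to day 5 (15.2% of all genes) and 1 of 7 to day 10 (23.5%). With a 1 kb window the KO count to day 5 was 1. Sox9 gained peaks in both genotypes at both days, and Sox8 in KO cells went from 0 to 1 peak at day 5 and to 2 at day 10. Of all genes without a peak in WT MEFs, 3.93% had one at day 5 with FLAG and 3.35% at day 10, and in KO cells 5.51% and 5.5%.

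JMJD3 itself was mapped in WT cells at day 5. Within 50 kb of the gene, JMJD3 positions were listed with OSKM at Sox9, Sox11 and Sox21, 3 of 10, against 55.6% of all protein-coding genes, and with OSlowKM at Sox21 alone, against 14.1%. The OSKM count depends on the window, with 3 of 10 within 10 kb (34% of all genes) and 7 of 10 within 100 kb (69.8%), both near the share of all genes. KLF4 peaks were listed in cells with FLAG at Sox8, Sox9, Sox11, Sox18 and Sox21, 5 of 10, against 59.5% of all genes, and in cells with JMJD3 at the same genes and Sox10, 6 of 10, against 67.2%. Sox1, Sox7, Sox14 and Sox17 had neither. None of the 3 members near a JMJD3 position with OSKM had a peak in all 10 H3K27me3 lists, and 6 of the other 7 did, Sox8 being the exception. Over all genes the share with a peak in all 10 lists was 4.1% of the 12192 genes near a JMJD3 position and 5.4% of the 9746 others. At 100 kb, a window chosen after seeing the data, the split among the members was gone, with a peak in all 10 lists at 4 of the 7 near a position and 2 of the 3 others (4.72% and 4.57% over all genes).

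**Figure D5:**
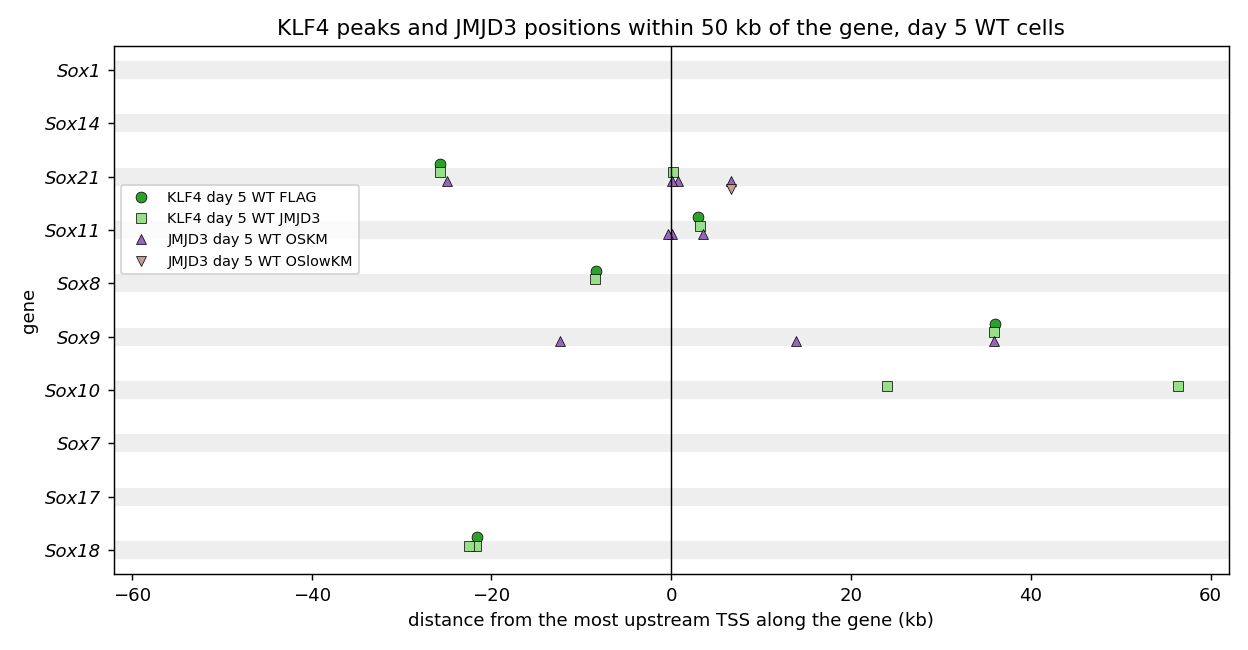
KLF4 peaks (green) and JMJD3 positions (purple and brown) within 50 kb of each Sox gene, at their distance from the most upstream TSS along the gene (horizontal axis, kb), from WT cells at day 5. Sox21 and Sox11 have JMJD3 positions at their TSS, Sox9 has them only at a distance, and Sox1, Sox14, Sox7 and Sox17 have no symbol.

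At Sox21, JMJD3 positions with OSKM lay 6642, 764 and 51 bp downstream of the TSS and at -24899 bp, upstream of it, and the single OSlowKM position lay 6679 bp downstream, 37 bp from the first of these. A KLF4 peak of 420 bp over the TSS, 201 bp downstream at its midpoint, was listed with JMJD3 and not with FLAG, and its midpoint was 150 bp from the nearest JMJD3 position. The KLF4 peak at the upstream site, at -25671 bp with FLAG and -25674 bp with JMJD3, was in both lists, and the nearest TSS to it was that of Gm9376, 4259 bp away. Of all KLF4 peaks in cells with JMJD3, 61.8% overlapped a peak of cells with FLAG, so a peak found with JMJD3 alone was common. Reads at this TSS cannot be assigned to Sox21 alone, since the noncoding gene Gm4675 overlaps it.

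At Sox11, JMJD3 positions with OSKM lay 382 bp upstream, 113 bp downstream and 3528 bp downstream of the TSS. KLF4 peaks lay 2996 bp downstream with FLAG and 3153 bp downstream with JMJD3, in the untranslated region of the gene, 375 bp from a JMJD3 position in the second case. Sox11 thus had JMJD3 at its start at day 5 and no H3K27me3 peak in any of the 10 lists. Of these lists, 2 came from MEFs that had received no virus. A link between the JMJD3 positions and the missing peaks was not tested.

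At Sox9, JMJD3 positions with OSKM lay 12421 bp upstream and 13916 and 35916 bp downstream. The last was 32 bp from the midpoint of a KLF4 peak with JMJD3 and 73 bp from that of the same peak with FLAG, at the downstream site printed above. None lay at the stretch over the gene body that carried H3K27me3 in reprogramming cells, and Sox9 was the nearest protein-coding gene to each of them.

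The remaining KLF4 peaks were near other genes. The peak at -8414 bp from Sox8 with FLAG lay 15 bp from the TSS of Lmf1 and its match with JMJD3 32 bp, those near Sox18 lay 116 to 592 bp from the TSS of Rgs19, and those near Sox10 (in cells with JMJD3 only) lay 131 bp from the TSS of Micall1 and 34 bp from that of 1700088E04Rik. Of 5 KLF4 peaks near members with FLAG, 2 had the member as their nearest gene, and of 9 with JMJD3, 3 did, while 9 of 10 JMJD3 positions with OSKM did. No KLF4 peak or JMJD3 position near a member had its midpoint inside an H3K27me3 peak of any list. This was rare in general, at 2.62% and 3.37% of the KLF4 peaks with FLAG and JMJD3, and 1.16% and 0.963% of the JMJD3 positions with OSKM and OSlowKM.

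The distance to the nearest bound position, was counted from the TSS. With OSKM the nearest JMJD3 position was 51 bp from Sox21, 113 bp from Sox11 and 12.4 kb from Sox9, and 64.2 to 288 kb from the other 7, with a median of 75.3 kb for the members and 54.7 kb for all genes. For KLF4 the medians were 50 kb and 42.4 kb with FLAG, and 30 kb and 23.9 kb with JMJD3. With OSlowKM the order was the opposite, with medians of 344 kb for the members and 398 kb for all genes. The nearest other protein-coding TSS lay at a median of 66.1 kb from the members, against 21.5 kb over all genes, and at 8.4 kb for Sox8, 8.67 kb for Sox18, 784 kb for Sox9 and 873 kb for Sox11. Its part in the counts within 50 kb was not tested. Sox1, Sox9, Sox11, Sox14 and Sox17 had no other protein-coding TSS within 50 kb. Of these, Sox9 and Sox11 had a JMJD3 position with OSKM within 50 kb, and Sox1, Sox14 and Sox17 had none.

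The starts of the members were rich in CpG. Within 500 bp on either side of the most upstream TSS, the ratio of observed to expected CpG was 0.908 at Sox11, 0.805 at Sox1, 0.804 at Sox9, 0.77 at Sox18, 0.769 at Sox7, 0.736 at Sox21, 0.686 at Sox8, 0.677 at Sox17, 0.603 at Sox14 and 0.166 at Sox10. The members' median of 0.753 compares with 0.552 over all genes and 0.648 over the 1026 genes with a peak in all 10 lists. Sox11 was above 92.3% of all genes and Sox10 above only 18.2%. The member with the highest median place thus had the lowest ratio at its most upstream TSS. At its second TSS, nearer to the peak, the ratio was 0.325, and the peak lay over the stretch of 18 CpGs shown above.

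Of the 9 other Sox genes, 2 to 4 had a peak in each list, where 8.26% to 14.7% of all genes did. Sox4, Sox12, Sox15 and Sox30 had none in any list, Sox13 had 1 peak in each MEF list and none later, and Sox3 had peaks in 6 lists, all from reprogramming cells. Sox2 was the only one of the 9 with a peak in all 10 lists. The virus carries Sox2, and reads from its coding sequence in the vector cannot be told apart from those of the endogenous exon, where KLF4 peaks and JMJD3 positions were also listed. JMJD3 positions with OSKM lay within 50 kb of 8 of these 9 genes, Sox3 being the exception, and of 55.6% of all genes. Sox5 and Sox6 span 953553 and 567925 bp, far more than any of the 10 genes, and the window around a long gene reaches more positions. Counted within 50 kb of a TSS, these were again 8 of 9, and 48.9% of all genes. The non-Sox genes whose peak counts were nearest to the members' median over the 10 lists were Drd4, Cartpt and Esr1. Each differed by a mean of 0.1 peaks, as did 623 genes in all, and these were taken by the nearest mean rank of the best peak, 242.4, 287.9 and 293.2 ranks away. Markers of other fates carried the mark in nearly every list, with 3 of 3 endoderm genes (Foxa2, Gata4 and Gata6) in all 10 and 2 or 3 of 3 neural genes (Pax6, Neurog1 and Olig2). Of 8 fibroblast genes 0 to 3 had a peak, and of 6 pluripotency genes 1 to 3. The lists hold no RNA or read counts, so neither the labelled cell types nor the deletion of Jmjd3 could be checked directly.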

How the data were processed

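Peak lists of 14 of 20 samples were used (10 H3K27me3, 2 KLF4, 2 JMJD3), with groups from the labels and 1 library each; 4 inputs and 2 H3K27ac samples were not used here. Reads were aligned by the authors to mm10 using bowtie2 (version 2.2.0 in the submitters' notes), and each library's peaks came from DFilter (H3K27me3) or MACS2 (KLF4, JMJD3). Drosophila chromatin was spiked in for H3K27me3; its use in peak calling is not given in the sources used here. The deposited H3K27me3 lists hold 1000 bp intervals with the authors' score, of unstated scale, used here only as a rank. The deposited JMJD3 lists hold 1 bp positions. Depth is unknown from the lists.

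A peak counted for a gene when it overlapped by at least 1 bp a window of 5 kb around any TSS (H3K27me3) or of 50 kb around the gene (KLF4, JMJD3). The main counts were set beside the share over all protein-coding genes. Alternatives covered windows, score cuts, list length, midpoints and TSS choice. All 10 members, the other Sox genes and the 3 genes with the most similar peak counts were named; members and lists were chosen with earlier results of these data known. Python 3.11.15, numpy 2.4.6 and bedtools 2.31.1 were used, and gene counts were checked against bedtools in 10 lists.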

Additional observations from a re-analysis of the deposited data

Results flagged for a closer look

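Some members changed their number of H3K27me3 peaks in opposite directions in 2 groups under the same contrast. These differences were not tested, since each rests on single libraries. From FLAG to JMJD3 at day 5, Sox14 went from 2 peaks to 1 in WT cells (a change of -1) and from 1 to 2 in KO cells (a change of 1), and Sox21 went from 0 to 1 in WT cells (1) and from 2 to 0 in KO cells (-2). Opposite changes were seen for 5.45% of the 3909 genes with a peak in any of these 4 lists. From FLAG to JMJD3 at day 10, Sox7 went from 2 to 1 in WT cells (-1) and from 2 to 3 in KO cells (1), as did 6.76% of genes in either order of directions. In KO cells Sox21 changed by -2 with JMJD3 at day 5 and by 1 at day 10, and 4.71% of genes changed in opposite ways. From MEFs to day 5 with FLAG, Sox1 gained 2 peaks in WT cells and changed by -1 in KO cells, and 4.88% of genes changed in opposite ways. None of the 9 members with a peak did so between day 5 and day 10 in WT cells (4.68% of genes), or from MEFs to day 10 (5.41%).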

How the results depend on the processing

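No paired test was run, since each group is 1 library and the labels carry no replicate numbers. For the same reason no replicate could be left out. The 4 pairs of FLAG and JMJD3 lists, matched by day and genotype, were only described. Of 216 alternative counts, 180 stayed within 1.5 times the reported one. With a 1 kb window, peaks at the members fell to 4 in KO MEFs, 7 in day 10 WT cells with FLAG and 6 in each other list that moved (WT MEFs, both vectors at day 5 and KO cells at day 10), 4 members had a peak in KO MEFs and 3 in all 10 lists (Sox7, Sox10 and Sox18), members with a peak in WT and not in KO MEFs rose to 3, those lost with JMJD3 at day 5 in KO cells fell to 0, and those lost after MEFs came to 0 in WT cells and to 1 in KO cells at day 5. With a 10 kb window, Sox21 had a peak in day 5 WT cells with FLAG, so that 0 members were lost from WT MEFs; KLF4 was near 2 members (FLAG; 40.3% of all genes) and 3 (JMJD3; 49.9%) within 10 kb, and JMJD3 near 7 (OSKM; 69.8%) and 2 (OSlowKM; 21.9%) within 100 kb, where 4 in place of 0 members near an OSKM position had a peak in all 10 lists. With the better-scoring 50% of each list, KO MEFs kept 4 members and 4 peaks, 3 members had a peak in all 10 lists (Sox10, Sox17 and Sox18), 4 had a peak in WT and not in KO MEFs, and 2 were lost from WT MEFs to day 10. With all lists at the length of the shortest, 3045 peaks, 2 members had a peak in WT and not in KO MEFs, and the other Sox genes with a peak fell to 1 in each list that moved. The wider 50% of KLF4 peaks left 1 member with FLAG (42.6% of all genes). By rank in place of percent of the list, chosen after seeing the data, 1 member in place of 5 stood lower with JMJD3 in WT cells at day 10, where the JMJD3 list is the shorter. The single most upstream TSS and peak midpoints moved no count by over 1.5 times. The cause of these shifts was not tested beyond the windows and list lengths themselves.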
